A study of Homo sapiens with 4 samples.

Results

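The comparison described here is that of HepG2 cells after 6 h with APRIL against the cells at 0 h, which takes 2 of the 4 arrays of the series. HepG2 is an established human liver cancer line that keeps many features of hepatocytes. Serum was withdrawn for 24 h according to the design text, or overnight according to the labels, and the cells then received 200 ng/ml APRIL. The 0 h array is of untreated cells, the 6 h array is of cells treated for 6 h, and the arrays at 2 h and 12 h of treatment are used only to place the values beside them. No array of untreated cells at 6 h is used here, so the effects of APRIL and of 6 further hours in culture cannot be told apart. Each time has 1 array, so there is no replicate error, no test and no p-value, and precision is limited by having so few arrays. For each probe set, the group of probes that reads 1 stretch of a transcript, the 0 h value was subtracted from the 6 h value, and the median over the probe sets of a gene was taken as the gene's log2 ratio. All 19775 genes with a probe set that names no other gene were read in this way, and 10523 of them had 2 or more probe sets.

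APRIL (TNFSF13) is a soluble member of the tumour necrosis factor ligands, best known for keeping plasma cells alive through the receptors BCMA (TNFRSF17) and TACI (TNFRSF13B). It also binds the heparan sulphate chains of proteoglycans such as the syndecans, which hepatocyte-like cells carry. Receptors of this family signal through TRAF adaptors to NF-kB and to MAP kinases. The deposited values are relative to each probe set's own median over the 4 arrays, so a value on an array says how that array stands among the 4 and not how abundant the transcript is. For the same reason the presence of hepatocyte markers could not be checked as a level. Taking values relative to this median also fixes how many arrays of a probe set lie above 0 and how many below. As differences between 6 h and 0 h, albumin (ALB) was at 0.07 and alpha-fetoprotein (AFP) at 0.04, each past 1.5-fold in neither direction.

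At 6 h, 20 genes were 2-fold or more higher than at 0 h (0.101% of all genes) and 56 were 2-fold or more lower (0.283%). At 1.5-fold the counts were 227 higher (1.15%) and 324 lower (1.64%). The median gene stood at 0.05, and 59.6% of genes lay above 0. Relative to the bacterial RNAs added at hybridization, which were themselves slightly higher at 6 h, 12 genes were 2-fold higher and 76 lower. The genes at the highest ratios were RAD54B at 1.76 and IFIT1 at 1.501, and the lowest were MALAT1 at -2.09 and the linker histone gene H1-4 at -1.76.

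**Figure D1:**
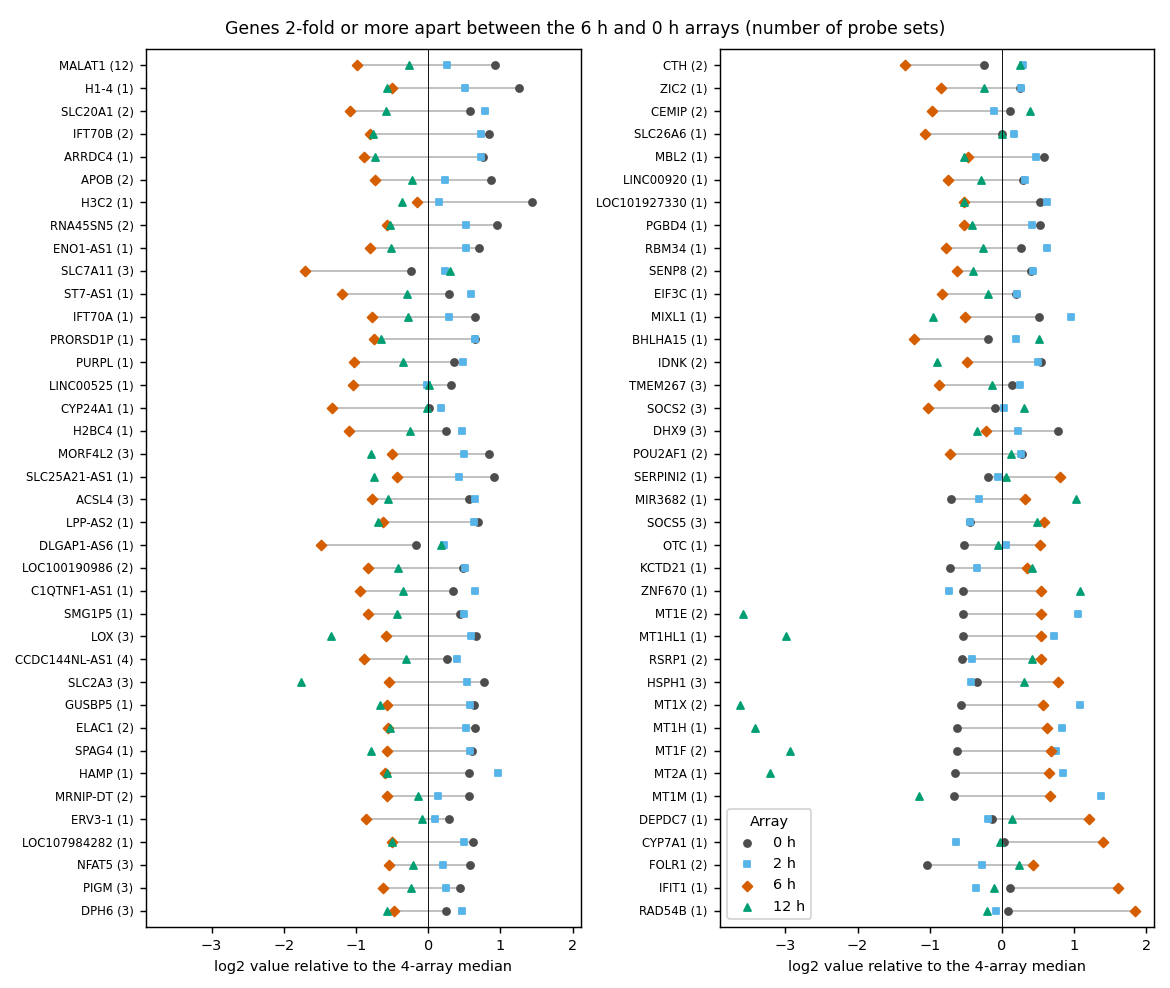
Value of each of the 76 genes past 2-fold on the 0, 2, 6 and 12 h arrays (x axis, log2 relative to the median of the 4 arrays; the median over probe sets, whose number stands in parentheses). A grey line joins the 0 h and 6 h values. SLC7A11 and CTH lie far to the left at 6 h, RAD54B, IFIT1, CYP7A1 and DEPDC7 far to the right, and the metallothioneins far to the left at 12 h.

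Agreement between the probe sets of a gene is the only measure of error within these 2 arrays. It covers the reading of a transcript and not the spread between cultures. Over all genes with 2 or more probe sets, the median SD between them was 0.19. Of the 20 higher genes 13 rest on 1 probe set, and of the 56 lower genes 31 do (46.8% of all genes). Among the 7 higher genes with several probe sets, all 7 had them above 0, and the median distance between the highest and lowest probe set was 0.24. Among the 25 lower ones, 21 had every probe set below 0, and that distance was 0.98. The lower side therefore holds many genes whose probe sets read different sizes. The most even evidence comes from genes in which each of 2 or more probe sets was past 1.5-fold. These were 17 higher (0.162% of the 10523) and 37 lower (0.352%). MT1E, MT1F and MT1X are among both the 7 and the 17. All their probe sets can match several transcripts (names ending in _x_at), so their agreement may not be separate evidence.

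**Figure D2:**
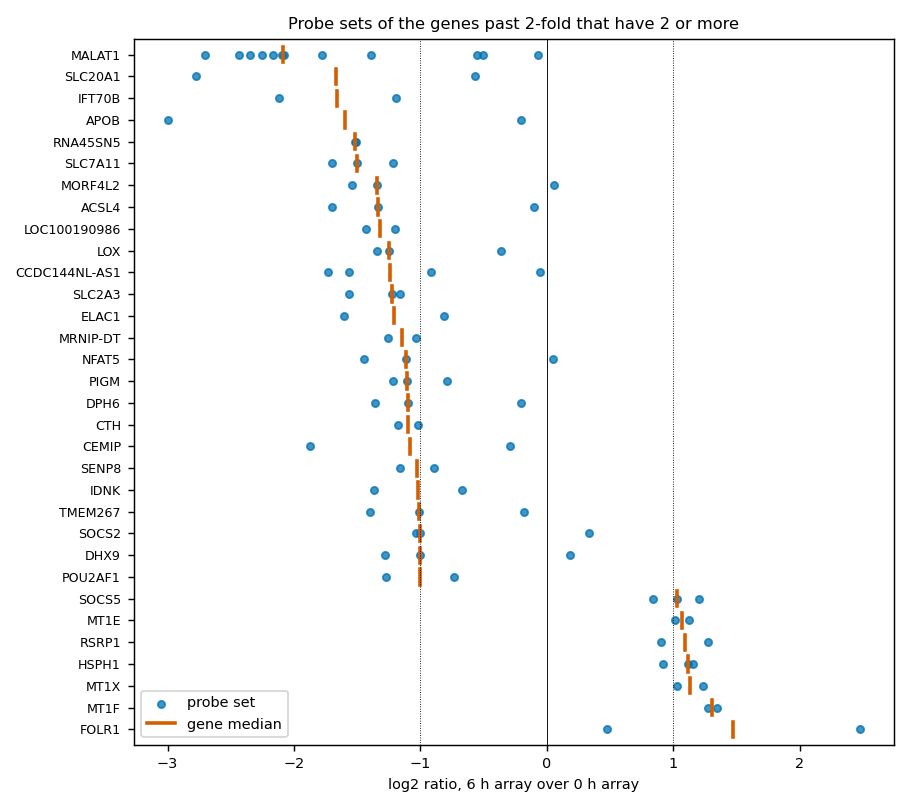
Log2 ratio of 6 h over 0 h (x axis) for each probe set (blue points) of the 32 genes past 2-fold that have 2 or more, with the gene's median (orange bar) and dotted lines at 2-fold. Probe sets of SLC7A11, SLC2A3, HSPH1 and SOCS5 lie close together, and those of APOB, SLC20A1 and FOLR1 far apart.

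Single probe sets leaned further to the lower side than gene medians did. Of all 54675 probe sets, 791 were 2-fold or more lower at 6 h (1.45%) and 120 were higher (0.219%). Lower probe sets made up 0.397% of those of 1 gene annotated with a RefSeq accession, 1.08% of those of 1 gene annotated with another accession and 3.21% of those with no gene in the annotation. At 12 h over 0 h these shares were 1.43%, 1.54% and 2.16%, and at 2 h the first was 0.0417%. Control probe sets for the small subunit ribosomal RNA, which has no poly-A tail, were at -0.80, -0.80 and -1.84 at 6 h and at -0.80, -0.95 and -1.91 at 12 h. Those of the large subunit were at 0.27, -0.97 and -0.97 at 6 h. Control probe sets at the 3' end, the middle and the 5' end of ACTB were at -0.19, -0.44 and -0.57, while the 3 of GAPDH lay between -0.09 and -0.04. Bacterial RNAs with added tails, which report on labelling, had a median of 0.23 over 27 probe sets. Apart from the 0.27, the ribosomal, ACTB and GAPDH readings lay below 0 at 6 h, while the tailed bacterial RNAs had a median above it. At 2 h the small subunit probe sets were at -0.24, -0.28 and -0.82, and 13 of the 54675 probe sets were 2-fold lower. The part of these readings in the lower side was not tested.

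**Figure D3:**
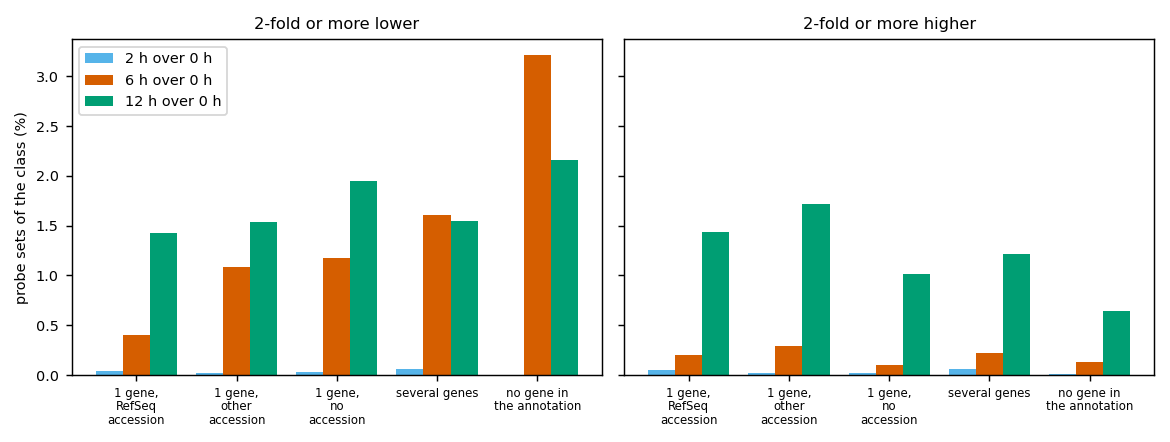
Share of probe sets (y axis, percent) 2-fold or more lower (left) and higher (right) than at 0 h, by how the annotation names the probe set, for the arrays at 2, 6 and 12 h. At 6 h the lower share goes from 0.397% for 1 gene with a RefSeq accession to 3.21% where no gene is named.

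When 1 probe set of a gene was 2-fold lower, its partners often were not. Of the 354 such probe sets with a partner in the same gene, the partners' median was at -0.13, 17.2% had partners past 1.5-fold lower and 32.5% had partners above 0. The 88 probe sets that were 2-fold higher and had a partner behaved alike, with partners at a median of 0.14 and 18.2% past 1.5-fold higher. These probe sets were picked for their size, so the smaller ratios of their partners describe disagreement and support nothing further.

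Metallothioneins, cysteine-rich metal carriers whose genes are switched on by the zinc sensor MTF1, held 7 of the 20 places among the higher genes. These 7 are of 11 measured members of the list that also holds MTF1 and SLC30A1, while 0.101% of all genes were 2-fold higher. MT1M stood at -0.67, 1.37, 0.67 and -1.15 on the 0, 2, 6 and 12 h arrays. MT2A stood at -0.66, 0.85, 0.66 and -3.22, and MT1F at -0.63, 0.75, 0.68 and -2.94. By the median of each of these genes 2 h was the highest array and 12 h the lowest, with 6 h between 2 h and 0 h. Of the 2 probe sets of MT1F, 1 was highest at 6 h, at 0.73 beside 0.62 at 2 h. The ratios of 6 h over 0 h were 1.33 (2.52-fold) for MT1M, 1.31 for MT2A, 1.31 for MT1F (SD 0.05 over 2 probe sets), 1.25 for MT1H, 1.13 for MT1X (SD 0.14 over 2), 1.08 for MT1HL1 and 1.07 for MT1E (SD 0.08 over 2). MT1G, at 0.71, had 1 probe set at 1.68 and 1 at -0.25. MTF1 itself was at 0.06. The zinc exporter gene SLC30A1, another target of MTF1, went the other way at -0.83, though its 3 probe sets ranged from -2.13 to -0.22. Against the 2 h array in place of the 0 h array, the 7 genes past 2-fold were lower at 6 h, from MT1M at -0.70 to MT1F at -0.06. Without probe sets that can match several transcripts (names ending in _x_at or _s_at), the list of metallothioneins, MTF1 and SLC30A1 had a median of 0.17 over 5 genes in place of 1.08 over 11. Every probe set of MT1E, MT1F and MT1X ends in _x_at, so these genes were not among the 5. MT1G kept only its probe set at -0.25. Readings of metallothionein probe sets ending in _x_at may not be separate.

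The promoters of metallothionein genes carry repeats of the metal response element that MTF1 binds. The 3 windows below, from 250 bases before to 50 after the gene start in RefSeq on GRCh38.p14, are those of all 3 metallothionein genes past 2-fold that have a window in the table. They were chosen for print after a search of promoters for 5 kinds of motif, made with the values known. Capitals mark the core letters TGCACNC or TGCGCNC on either strand.
MT1X promoter, chr16:56682220-56682519, plus strand: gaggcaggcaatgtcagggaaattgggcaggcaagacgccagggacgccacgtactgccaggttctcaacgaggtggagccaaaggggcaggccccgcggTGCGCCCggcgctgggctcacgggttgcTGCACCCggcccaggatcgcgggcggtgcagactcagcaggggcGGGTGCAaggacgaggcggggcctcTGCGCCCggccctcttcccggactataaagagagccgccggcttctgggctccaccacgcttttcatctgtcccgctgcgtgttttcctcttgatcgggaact
MT2A promoter, chr16:56608334-56608633, plus strand: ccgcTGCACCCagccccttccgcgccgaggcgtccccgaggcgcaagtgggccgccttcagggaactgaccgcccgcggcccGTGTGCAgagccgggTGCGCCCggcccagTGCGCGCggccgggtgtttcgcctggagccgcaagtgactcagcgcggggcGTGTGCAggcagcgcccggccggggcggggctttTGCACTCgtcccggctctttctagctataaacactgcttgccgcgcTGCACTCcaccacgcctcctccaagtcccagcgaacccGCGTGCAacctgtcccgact
MT1H promoter, chr16:56669564-56669863, plus strand: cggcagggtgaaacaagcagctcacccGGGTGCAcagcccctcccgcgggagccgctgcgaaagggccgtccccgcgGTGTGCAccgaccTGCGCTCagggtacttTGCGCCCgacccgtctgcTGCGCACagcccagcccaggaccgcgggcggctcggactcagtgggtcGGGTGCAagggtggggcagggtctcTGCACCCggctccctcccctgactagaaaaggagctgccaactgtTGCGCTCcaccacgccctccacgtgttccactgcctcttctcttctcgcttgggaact
MT1X held 4 matches, and MT2A and MT1H held 8 each. Such a short motif is common, since 29.6% of all 35116 windows of this length, and 33.4% of the 27305 genes they belong to, held at least 1. Of the 11 measured members of the list, 5 had a window in the table and 4 of these held the core.

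Cytosolic heat-shock chaperones refold damaged proteins, and their genes are switched on by HSF1. Of 20 measured members 18 lay above 0 (59.6% of all genes did), 6 were 1.5-fold or more higher (1.15% of all genes) and none was 1.5-fold lower, with a median of 0.32. The 3 probe sets of HSPH1, a nucleotide exchange factor of the major cytosolic chaperones, gave medians of -0.35, -0.43, 0.77 and 0.31 at 0, 2, 6 and 12 h, so 6 h was the highest array and the arrays at 0 and 2 h the lowest. Its ratio was 1.12 (2.17-fold, SD 0.13 over 3 probe sets, from 0.92 to 1.16). The J-domain co-chaperones DNAJB4, DNAJA1, DNAJB1 and DNAJB6 were at 0.89 (SD 0.50 over 2), 0.80 (SD 0.13 over 2), 0.65 (SD 0.18 over 2) and 0.63 (1 probe set). CHORDC1, a co-chaperone of the stress-induced dimeric chaperones, was at 0.74, with 1 probe set at 1.16 and 1 at 0.31. HSPA4L was at 0.53, BAG3 at 0.41 and HSF1 at 0.22. CDC37L1, a relative of a kinase-directed co-chaperone and not on the list, was at 0.90 (0.42 to 1.08 over 3 probe sets). The members did not share a course: DNAJB6 stood at -0.37, -0.26, 0.26 and 0.90 and was highest at 12 h, while HSPA4L stood at -0.02, 0.02, 0.51 and -0.24 and was highest at 6 h.

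HSF1 binds heat-shock elements, read here as 3 alternating GAA and TTC units spaced by 2 bases. Of 18 measured members with a promoter window in the table, 6 held such an element (HSP90AA1, HSP90AB1, HSPD1, DNAJA1, DNAJB6 and CHORDC1), against 0.490% of all 35116 windows and 0.608% of all 27305 genes in the table. HSP90AB1 at -0.11 and HSPD1 at -0.06 hold the element and were not higher at 6 h. The windows printed are those of the 3 that both held a match and were past 1.5-fold, so they were picked for their matches. Capitals mark the elements, and the source is the same GRCh38.p14 table.
CHORDC1 promoter, chr11:90223000-90223299, minus strand: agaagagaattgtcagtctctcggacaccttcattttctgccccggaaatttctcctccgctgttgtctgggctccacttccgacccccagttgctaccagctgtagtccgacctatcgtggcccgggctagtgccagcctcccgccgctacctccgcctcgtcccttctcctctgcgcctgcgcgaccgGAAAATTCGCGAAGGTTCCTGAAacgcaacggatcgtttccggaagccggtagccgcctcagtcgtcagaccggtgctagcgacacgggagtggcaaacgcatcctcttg
DNAJA1 promoter, chr9:33025023-33025322, plus strand: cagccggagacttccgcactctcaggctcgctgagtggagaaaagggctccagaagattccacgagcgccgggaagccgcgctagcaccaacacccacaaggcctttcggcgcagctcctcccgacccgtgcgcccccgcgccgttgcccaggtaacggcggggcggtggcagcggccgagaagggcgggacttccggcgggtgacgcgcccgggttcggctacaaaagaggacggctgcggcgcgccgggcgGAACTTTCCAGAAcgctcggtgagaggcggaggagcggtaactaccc
DNAJB6 promoter, chr7:157336754-157337053, plus strand: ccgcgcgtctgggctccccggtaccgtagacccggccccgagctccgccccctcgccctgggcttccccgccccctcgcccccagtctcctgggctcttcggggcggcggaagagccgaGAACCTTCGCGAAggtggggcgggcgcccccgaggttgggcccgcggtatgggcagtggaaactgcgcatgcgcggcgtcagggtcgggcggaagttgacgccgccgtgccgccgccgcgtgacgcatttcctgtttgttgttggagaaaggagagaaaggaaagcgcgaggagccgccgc
In CHORDC1 the 3 matches overlap in 1 run. No window of HSPH1 held these letters, which says only that they are not in this stretch. The other 3 kinds searched were an ATF4-type element, the core of the interferon-stimulated response element and the E-box CACGTG, each on both strands. The ATF4-type element was in 7 of the 25 amino acid and ATF4 genes with a window (4.46% of all genes), ASNS among them but not CTH. The interferon core was in 14 of 20 interferon-stimulated genes (4.38%), in IFIT1 and IFI27 and also in IFI44L, which was at -0.57. The E-box was in 5 of 14 arrestin-domain and glucose sensing genes (8.77%), ARRDC4 and PKLR among them, which stood on opposite sides of 0. Matches were thus found in genes that were higher, lower or near 0 at 6 h.

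Of 30 measured genes of G2 and mitosis, 25 lay above 0 at 6 h (59.6% of all genes did), 6 were 1.5-fold or more higher (1.15% of all genes) and 1 was 1.5-fold lower, with none past 2-fold. Their median was 0.30 (0.05 over all genes), and 0.16 without probe sets ending in _x_at or _s_at. Of the 18 members with several probe sets, 5 had them all on 1 side of 0. Over all 10523 such genes, 2649 had them all above 0 and 1477 all below. KIF18A, a kinesin that aligns chromosomes, stood at 0.16, -0.19, 0.97 and -0.16 at 0, 2, 6 and 12 h. The spindle checkpoint kinase TTK stood at 0.15, -0.19, 0.90 and -0.15, and the spindle protein NUSAP1 at 0.07, -0.07, 0.68 and -0.52. In each of the 3 the 6 h array was the highest. The ratios over 0 h were 0.81 for KIF18A, 0.75 for TTK, 0.69 for AURKA (0.29 to 0.73 over 3 probe sets), 0.63 for DLGAP5, 0.62 for CENPE, the kinetochore motor, and 0.61 for NUSAP1 (0.58 and 0.63). Both probe sets were also close for ANLN, which organises the cleavage furrow, at 0.78 (0.78 and 0.78), and for the condensin subunit NCAPG at 0.70 (0.68 and 0.73), neither of them on the list. ASPM, a spindle pole protein, was the exception at -0.66, with probe sets from -0.85 to 0.35. Genes of G1/S and DNA replication did not move with them: of 23 none was past 1.5-fold, the median was -0.01, and the widest were CCNE2 at -0.34, SLBP at -0.32, GINS1 at 0.32 and ORC1 at 0.26.

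**Figure D4:**
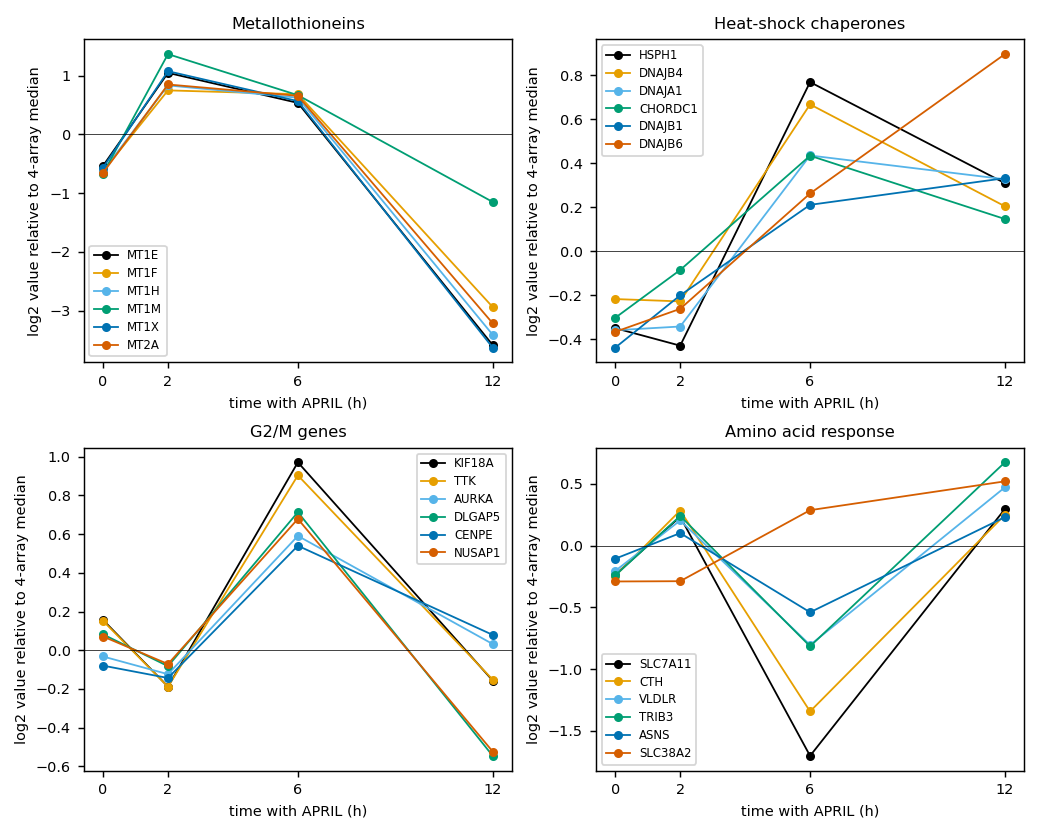
Value on each array (y axis, log2 relative to the median of the 4 arrays, median over probe sets) against time with APRIL (x axis, h; 0 h is untreated) for 6 members each of 4 gene groups. Each point is 1 array. The members were picked after their values were seen, for size within their lists, so ASPM, the G2/M gene at -0.66, is not drawn. G2/M genes stand high at 6 h, heat-shock genes high at 6 h or at 12 h (DNAJB1, DNAJB6), metallothioneins low at 12 h, and SLC7A11, CTH, VLDLR, TRIB3 and ASNS low at 6 h.

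In 4 of the 5 genes with the highest ratios the 6 h array stood apart from the others, and each of the 4 rests on 1 probe set. The other is FOLR1, which has 2 probe sets far apart. RAD54B, a helicase-like protein of homologous recombination, stood at 0.08, -0.08, 1.84 and -0.21 on the 0, 2, 6 and 12 h arrays. IFIT1, an interferon-induced protein that binds foreign RNA, stood at 0.11, -0.36, 1.61 and -0.11. CYP7A1, which starts bile acid synthesis, stood at 0.03, -0.63, 1.40 and -0.03, and DEPDC7 at -0.13, -0.19, 1.21 and 0.13. In all 4 only the 6 h array was above 0.2. Their ratios over 0 h were 1.76 (3.38-fold), 1.501 (2.83-fold), 1.38 (2.60-fold) and 1.34 (2.53-fold). Relatives of these genes gave smaller values. Of 14 homologous recombination and Fanconi genes RAD54B alone was past 1.5-fold, with XRCC2 at -0.41, RAD51C at 0.33 and RAD51AP1 at 0.33. Of 26 interferon-stimulated genes 2 were past 1.5-fold higher (1.15% of all genes), IFIT1 and IFI27 (0.79). IRF9 was at 0.49, USP18 at 0.41 and IFI44L at -0.57. Of 20 bile acid genes 2 were past 1.5-fold higher (1.15%), CYP7A1 and KLB, the co-receptor through which FGF19 restrains CYP7A1, at 0.97 (0.65 and 1.29). FGF19 was at 0.42, and the bile acid exporter subunits SLC51A and SLC51B were at -0.51 and -0.44.

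The next 6 genes were picked from those with every probe set past 1.5-fold higher, and they form no list. SOCS5, a suppressor of cytokine and growth factor signalling, stood at -0.45, -0.44, 0.59 and 0.48 at 0, 2, 6 and 12 h. Its values at 6 and 12 h were both higher than those at 0 and 2 h. Its ratio was 1.03 (0.84 to 1.21 over 3 probe sets). RSRP1, a splicing-related protein, stood at -0.55, -0.41, 0.54 and 0.41 and gave 1.09 (0.90 and 1.28). PPM1D, a phosphatase that turns off DNA damage signalling, was at 0.95 (0.94 and 0.95), and DUSP10, a phosphatase of stress-activated MAP kinases, at 0.94 (0.90 and 0.97). TAF5, a subunit of the general factor TFIID, was at 0.89 (0.84 and 0.93), and SIRT4, a mitochondrial sirtuin, at 0.80 (0.71 and 0.90). In these 6 genes the distance between probe sets was smaller than the ratio itself. Picking genes with every probe set past 1.5-fold favours this, so it supports nothing further. FOLR1, the folate receptor, shows the reverse case, since its gene ratio of 1.48 lies between 0.48 and 2.48. On its second probe set the 0 h array stood alone at -2.03, with 2, 6 and 12 h at -0.41, 0.45 and 0.41.

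Among lower genes with 3 or more probe sets, each past 1.5-fold, the largest ratio was that of SLC7A11, the cystine importer that feeds glutathione synthesis. Its 3 probe sets stood at -0.23, -0.20 and -0.28 at 0 h, at 0.23, 0.20 and 0.28 at 2 h, at -1.93, -1.70 and -1.49 at 6 h, and at 0.30, 0.27 and 0.44 at 12 h. The 6 h array was the lowest on each, and 2 h and 12 h both lay above 0 h. The gene ratio was -1.505 (SD 0.24 over 3 probe sets), which is 2.84-fold lower. CTH, the enzyme that makes cysteine from cystathionine, stood at -0.24, 0.28, -1.34 and 0.25, likewise lowest at 6 h with 2 h and 12 h above 0 h, and had a ratio of -1.10 (-1.17 and -1.02). VLDLR was at -0.60, the pseudokinase TRIB3 at -0.57 (-0.58 and -0.57) and asparagine synthetase (ASNS) at -0.43 (-0.72 and -0.15). DNAJB9, an endoplasmic reticulum co-chaperone on another list, was at -0.58 (-0.64 to -0.50 over 3). SLC7A11, CTH, VLDLR, TRIB3 and ASNS are targets of ATF4, the factor that answers amino acid shortage. Of the 29 measured members of the list of amino acid transport and ATF4 targets, 19 lay below 0 (39.7% of all genes did). Among the 29, 3 were 1.5-fold or more lower (1.64% of all genes) and none 1.5-fold higher, and the list's median was -0.15. At 2 h the list's median was 0.22 and at 12 h 0.68, each against the same 0 h array. Other members stood above 0 at 6 h without passing 1.5-fold, among them the neutral amino acid transporter SLC38A2 at 0.58 (0.41 to 0.59 over 3) and the stress-induced DDIT4 at 0.47.

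Other solute carriers stood among the lower genes. Grouped by symbol after the values had been seen, 342 solute carrier genes had a median of 0.04, and 57.9% lay above 0 (59.6% of all genes did). At 1.5-fold or more, 9 were lower (2.63%, beside 1.64% of all genes) and 2 higher (0.585%, beside 1.15%). SLC6A8, the creatine transporter, stood at 0.24, 0.15, -0.80 and -0.15 at 0, 2, 6 and 12 h and gave -0.98 (-1.05 to -0.84 over 3 probe sets). SLC12A2, a sodium, potassium and chloride cotransporter, stood at 0.04, -0.04, -0.73 and 0.45 and gave -0.77 (-0.79 and -0.75). SLC26A6, an anion exchanger, was at -1.07 with 1 probe set. In these 3 the 6 h array was the lowest. The phosphate importer SLC20A1, at -1.67, had probe sets at -2.78 and -0.56, and SLC30A10, a manganese exporter, was at -0.69 with 1.

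Among genes of glucose transport and glycolysis, SLC2A3 and PDK1 were past 1.5-fold lower. SLC2A3, a glucose transporter, stood at 0.77, 0.54, -0.54 and -1.77 at 0, 2, 6 and 12 h, with 6 h between the early arrays and 12 h. Its ratio was -1.23 (SD 0.21, -1.56 to -1.16 over 3 probe sets). PDK1, a pyruvate dehydrogenase kinase, was at -0.70 (-0.97 to -0.44 over 3), hexokinase HK2 at -0.55 (-0.74 to -0.44 over 3) and PGK1 at -0.39 (-0.57 to -0.21 over 6). Of the 23 genes listed 17 lay below 0 (39.7% of all genes did) and 2 were 1.5-fold or more lower (1.64%), with a median of -0.19. Among 20 targets of hypoxia-inducible factors outside glycolysis 11 lay below 0 (39.7% of all genes) and 2 were 1.5-fold or more lower (1.64%). They were LOX, which cross-links collagen, at -1.25 (-1.34 to -0.36 over 3) and the mitophagy receptor BNIP3L at -0.82 (-0.91 and -0.72), and the list's median was -0.06. ARRDC4, an arrestin-domain protein induced by glucose, stood at 0.76, 0.73, -0.89 and -0.73 on 1 probe set, with 6 and 12 h both far below 0 and 2 h. Its ratio was -1.65 (3.14-fold lower). Its relatives TXNIP, which restrains glucose uptake, and ARRDC3 were at -0.61 (-0.98 to -0.43 over 3) and -0.51. Of the 15 genes on that list 11 lay below 0 (39.7% of all genes), 2 of them past 1.5-fold (1.64%). The liver pyruvate kinase PKLR was at 0.57.

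Among genes of hepcidin and BMP signalling, HAMP and ID2 were past 1.5-fold lower. HAMP, the iron-regulating hormone hepcidin, stood at 0.57, 0.97, -0.60 and -0.57 on 1 probe set and gave -1.16 (2.24-fold lower). ID2 stood at 0.34, 0.21, -0.48 and -0.21 and gave -0.82 (-0.93 and -0.72). In both genes the arrays at 0 and 2 h lay above 0 and those at 6 and 12 h below. Centring on the median of 4 arrays puts 2 on each side of 0 by construction. Only which arrays fall on which side is a reading. ID1 was at -0.35 and ID3 at -0.24, while SMAD7, a feedback inhibitor, was at 0.30, the ligand gene BMP6 at 0.36 and SMAD6 at -0.09. Of the 23 genes on that list 13 lay below 0 (39.7% of all genes did) and 9 above, with 2 past 1.5-fold lower (1.64%). The median of -0.09 became 0.0053 without probe sets ending in _x_at or _s_at. Among hepatocyte genes, the transcription factor PROX1 was at -0.93 (-1.64 to -0.41 over 4), CEBPA at -0.72, ONECUT1 at -0.53, FOXA1 at -0.46 and FOXA3 at 0.23, while the secreted proteins TTR and F9 were at 0.39 and 0.37. Of 22 such genes measured, PROX1 and CEBPA were the 2 past 1.5-fold lower (1.64% of all genes were), and the list's median was 0.04. WNT targets had a median of -0.15 with 13 of 19 below 0 (39.7% of all genes), and DKK1 alone was past 1.5-fold lower at -0.59. NKD1, a feedback inhibitor of the pathway, was at -0.56 (-0.70 to -0.44 over 3 probe sets), LGR5 was at -0.37 (-0.41 and -0.33), and AXIN2 at -0.16.

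**Figure D5:**
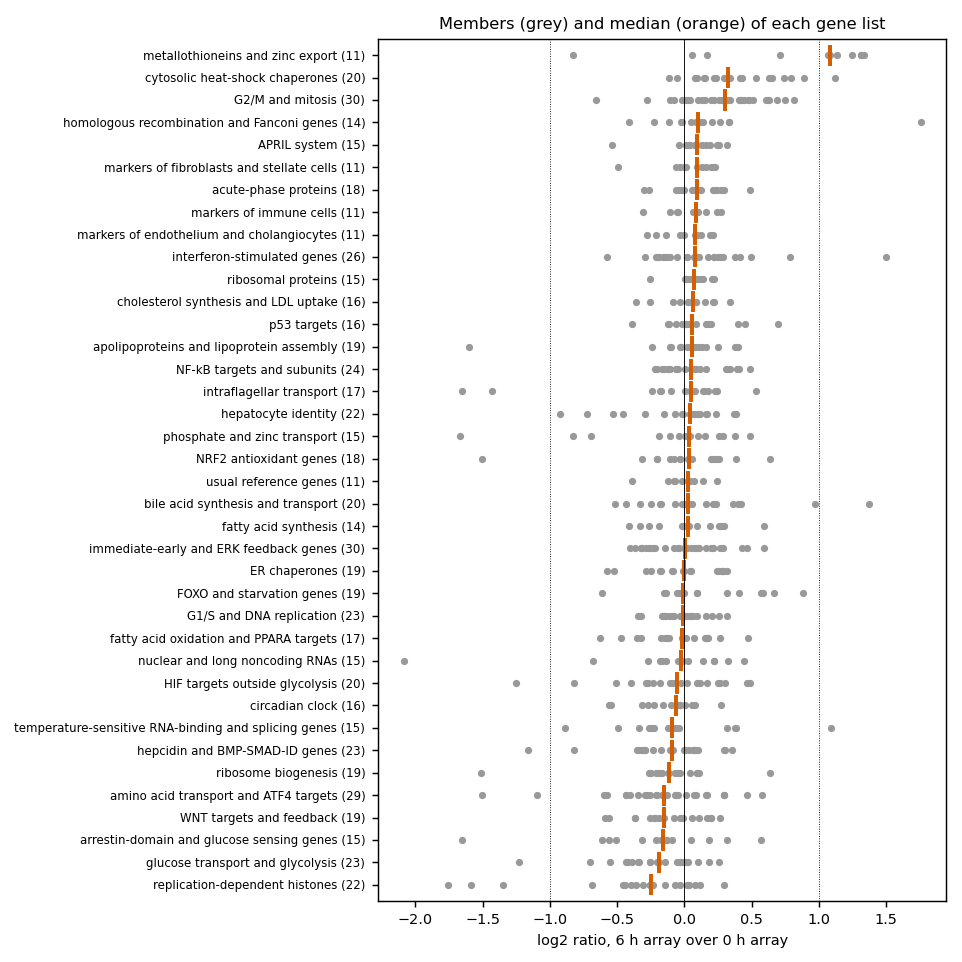
Log2 ratio of 6 h over 0 h (x axis) of each measured member (grey points) of the 38 gene lists, with the list's median (orange bar) and dotted lines at 2-fold. Numbers in parentheses are members measured. Metallothioneins, heat-shock chaperones and G2/M genes have the highest medians, and histone and glucose genes the lowest.

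Several of the lowest genes are transcripts without a poly-A tail or noncoding RNAs. MALAT1, a long noncoding RNA of nuclear speckles, had 12 probe sets, of which 9 were 2-fold or more lower and 3 were not past 1.5-fold. Their median stood at 0.93, 0.26, -0.98 and -0.26 at 0, 2, 6 and 12 h, so 0 h was the highest array and 6 h the lowest. The probe sets gave ratios from -2.71 to -0.07 around a median of -2.09 (SD 0.87). The probe set at -0.07 is the only one of the 12 whose name ends in neither _x_at nor _s_at. Without those that can match several transcripts, MALAT1 was therefore at -0.07. RNA45SN5, the ribosomal RNA precursor, was at -1.51 on both of its probe sets. Replication-dependent histone genes, whose messages end in a stem-loop, had a median of -0.25, the lowest of the lists. Of 22 measured, 16 lay below 0 (39.7% of all genes did) and 4 were past 1.5-fold lower (1.64% of all genes). H1-4 stood at 1.25, 0.50, -0.50 and -0.58 and gave -1.76. H3C2 stood at 1.44, 0.15, -0.15 and -0.36 and gave -1.59. H2BC4 gave -1.35 and H2BC21 -0.69, and each of the 4 rests on 1 probe set. In H1-4 and H3C2 the 0 h array was the highest, while H2BC4, at 0.25, 0.46, -1.10 and -0.25, was lowest at 6 h. Of the 56 lower genes, 15 (26.8%) are annotated as long noncoding RNA, as are 13.4% of all genes, and 8 (14.3%) carry antisense or divergent-transcript symbols, which 4.95% of all genes do. MRNIP-DT, 1 of the 8, had close probe sets at -1.25 and -1.03. The 15 listed long noncoding RNAs had a median of -0.03, with 6 above 0 (59.6% of all genes) and 2 past 1.5-fold lower (1.64%). Among them FTX was at -0.68 (-0.82 and -0.53), OIP5-AS1 at 0.45 and KCNQ1OT1 at -0.27, with 5 probe sets from -1.44 to 0.67. The part of RNA without tails in these values was not tested.

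Further coding genes were lower on each probe set. IFT70B, a subunit of the intraflagellar transport machinery, was at -1.66 (-2.12 and -1.19), and its near-identical copy IFT70A at -1.43 on 1 probe set, so these readings may not be separate. No other of the 17 intraflagellar transport genes was past 1.5-fold lower, and IFT20 was at 0.53. ELAC1, which processes transfer RNA, was at -1.21 (-1.61 and -0.81), and PIGM, a mannosyltransferase of membrane anchor synthesis, at -1.10 (-1.22 to -0.79 over 3). SENP8, a protease that removes NEDD8, was at -1.03 (-1.16 and -0.89), the gluconokinase IDNK at -1.02 (-1.37 and -0.67) and POU2AF1, a coactivator best known from B cells, was 2-fold lower (-1.27 and -0.73). KICS2, part of a complex that restrains mTORC1, was at -0.84 (-1.20 to -0.73 over 3). CYP24A1, which breaks down active vitamin D, stood at 0.02, 0.17, -1.33 and -0.02 and gave -1.35 on 1 probe set, with 6 h alone far from the other arrays.

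In other genes the call depends on which probe set is read. APOB, the backbone protein of low-density lipoprotein particles, had 1 probe set at 1.68, 0.39, -1.31 and -0.39 and another at 0.05, 0.06, -0.16 and -0.05 at 0, 2, 6 and 12 h. The first gave -3.00 and the second -0.20, so the gene's -1.60 is the middle of 2 unlike readings. No other of 19 apolipoprotein and lipoprotein assembly genes was past 1.5-fold, with APOM at 0.40, MTTP at 0.39 and APOE at 0.25. GPCPD1 had probe sets at -2.59, -0.66 and -0.62, and CPEB4, a translational regulator, at -1.97, -0.89, -0.58 and 0.03. ARMC8 spanned -1.69 to 0.61 over 6 probe sets, and PRPF38B gave -1.75 and 0.37. The chromatin protein gene MORF4L2, NFAT5, the RNA helicase gene DHX9 and the cytokine signalling suppressor SOCS2 were at -1.35, -1.12, -1.004 and -1.006, each with 1 of 3 probe sets above 0. Without probe sets ending in _x_at or _s_at, NFAT5 was at 0.05. In the 10 genes past 1.5-fold with the widest distance between probe sets, FOLR1 and MT1G were on the higher side and the other 8 on the lower.

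Few genes of the system that APRIL acts through, or of the pathways its receptors feed, were past 1.5-fold. Over all genes 1.15% were higher and 1.64% lower by that measure, so these counts are near the background. Of 15 genes for APRIL, BAFF, their receptors, proteoglycans and TRAF adaptors none was past 1.5-fold. Their median was 0.10, and 13 lay above 0 (59.6% of all genes did). TNFSF13 was at 0.25, BAFF (TNFSF13B) at 0.25, TNFRSF13C at 0.26, TNFRSF17 at 0.19, TNFRSF13B at 0.13 and the proteoglycan GPC3 at -0.54, with its probe sets at -1.20 and 0.12. Of 24 NF-kB subunits and targets none was past 1.5-fold, and the median was 0.05, with CFB at 0.49, IER3 at 0.41 and CXCL8 at 0.34. Of 30 immediate-early and ERK feedback genes ZFP36 alone was past 1.5-fold higher at 0.59, and CCN2 was at -0.40. Acute-phase genes (18), ER chaperones (19), cholesterol synthesis genes (16), ribosomal proteins (15), clock genes (16) and usual reference genes (11) likewise had no member past 1.5-fold. Markers of immune cells, fibroblasts and stellate cells, and endothelium and cholangiocytes had medians of 0.09, 0.10 and 0.08, with none of 33 genes past 1.5-fold.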

How the data were processed

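Total RNA of 4 HepG2 samples was labelled and read on Affymetrix U133 Plus 2.0 arrays. The authors deposited log2 values from the RMA method, as named without a version in the submitters' processing notes. Tested on the file, the median of each of the 54675 probe sets over the 4 arrays was 0 within 1e-06. A higher value was read as more transcript, and the logarithm was taken as RMA's base 2, since neither direction, base nor the software of the centring is stated in the sources used here. Symbols came from the platform annotation, updated by gene identifier to RefSeq (GRCh38.p14, names and promoter windows only). Probe sets with 1 symbol (41091) were kept, and those with several (1801), with none, and the 62 controls were left out of gene values. The differences of arrays and the medians over probe sets were computed with Python 3.11.15, pandas 2.3.3 and numpy 2.4.6, and tested on simulated data with known changes. A gene is called at 2-fold, a log2 ratio of 1. The members and the 38 gene lists (788 entries, 698 measured) were chosen with earlier results of these data known, so no list supports its own direction. Entries with no value here are not analysed here. Genes named are those past 2-fold with even probe sets, the 15 highest and 15 lowest with probe sets of 1 sign, up to 6 members per list with the largest ratios, the 10 with the widest distance between probe sets, and genes of 3 or more probe sets ranked by the one nearest to 0. Members named for their role and not for their size, and single genes set beside these, were chosen after their values were seen. The solute carrier grouping, probe set classes, partner comparison, control readings and motif searches were added after the files were seen. The probe set SD of 0.19 that decides whether a list median moved was also chosen then. Alternatives changed the scaling, the probe sets kept, the summary, the threshold and the reference array.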

Additional observations from a re-analysis of the deposited data

Results flagged for a closer look

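The results here are list medians whose 6 h value and whose 2 h or 12 h value, each against the same 0 h array, have opposite signs and are both over 0.1 in size. That size was set after the values were seen, and it replaced an earlier one that had been chosen with the amino acid list in view. With 1 array per time none of these differences was tested. Metallothioneins and zinc export had a median of 1.08 at 6 h and -2.31 at 12 h. G2/M genes had 0.30 at 6 h, against -0.13 at 2 h and -0.31 at 12 h. Homologous recombination and Fanconi genes had 0.10 at 6 h, against -0.17 at 2 h and -0.76 at 12 h. Amino acid transport and ATF4 targets had -0.15 at 6 h, against 0.22 at 2 h and 0.68 at 12 h. WNT targets had -0.15 at 6 h and 0.13 at 12 h.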

How the results depend on the processing

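No paired analysis was possible because each time has 1 array. The count of 20 higher genes became 12 with spike-in centring, 227 at 1.5-fold, 1 at 3-fold, 87 when each gene's widest-ranging probe set was read, and 3 where each of 2 or more probe sets had to be past 2-fold. The count of 56 lower genes became 324, 7, 327 and 7 under the last 4 of these settings, and 33 against the mean of the 0, 2 and 12 h arrays. It was 76 with spike-in centring and 77 without probe sets ending in _x_at or _s_at. Picking the widest probe set selects for size by construction. The 3 higher genes with each probe set past 2-fold were MT1E, MT1F and MT1X, whose probe sets all end in _x_at. The metallothionein and zinc export median was 0.17 without probe sets ending in _x_at or _s_at, -0.19 against the 2 h array and 1.47 against the mean of 3. The amino acid and ATF4 median was -0.41 against 2 h and -0.37 against that mean. Against that mean replication genes were at 0.38, homologous recombination genes at 0.37 and immediate-early genes at -0.21. Except for the widest probe set, the cause of these shifts was not tested. Of the 20 higher genes, 7 were also 2-fold higher against the 2 h array and 10 against the mean of 3, and of the 56 lower genes 41 and 22 were. The splicing list was at -0.50 with the widest probe set. Against 2 h, MT1E was at -0.51, MT1F at -0.064, MT1H at -0.21, MT1HL1 at -0.19, MT1M at -0.70, MT1X at -0.51 and MT2A at -0.19. NFAT5 was at 0.050 without probe sets that can match several transcripts. Each centring subtracts 1 constant from every gene, so it tests no list against another. The mean over probe sets moved none of the 38 list medians by more than the probe set SD of 0.19. Neither replicate error nor expression level was available, so precision rests on probe sets alone.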

Other observations

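Of 19 FOXO and starvation genes 3 were 1.5-fold or more higher at 6 h (1.15% of all genes) and 1, TXNIP, lower (1.64%). PCK1, which commits carbon to glucose synthesis, stood at -0.18, -0.42, 0.70 and 0.18 at 0, 2, 6 and 12 h and gave 0.89 on 1 probe set, with 6 h the highest array. The transcriptional repressor BCL6 gave 0.67 (0.37 to 0.99 over 3 probe sets) and was higher still at 12 h, at 1.78. The third, the factor FOXO4, was at 0.585 on 1 probe set, at the edge of 1.5-fold, and CCNG2 was just inside it at 0.57 with 5 probe sets from 0.17 to 1.37. OTC, a urea cycle enzyme, was 2-fold higher at 1.05 on 1 probe set. Of the 16 measured genes on the list of p53 targets, which leaves out PPM1D, SESN1 alone was past 1.5-fold. It was higher, at 0.69 (1.15% of all genes were 1.5-fold higher), and CDKN1A was at 0.20.

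Among 15 temperature-sensitive RNA-binding and splicing genes, RSRP1 was past 1.5-fold higher and SRSF5 past it lower, at -0.89 with probe sets from -0.90 to 0.27. SON was at -0.50, LUC7L3 at 0.37 and the splicing kinase CLK1 at 0.32. Of 12 members with several probe sets, 3 had them all on 1 side of 0.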
